A study of Mus musculus with 22 samples.

Results

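The comparison set spinal cord from above T6 (rostral cord) taken 48 h after aortic cross-clamping against rostral cord taken 24 h after it. It rests on 7 of the 22 arrays of the study, 4 at 48 h (numbered 271 to 274 in their titles) and 3 at 24 h (281 to 283), chosen by the source name in the labels. All mice were C57Bl/6 wild type, 10 to 12 weeks old. The aorta was clamped for 7.5 min in both groups, and 4 rostral arrays from sham-operated mice (277 to 280) give the level without clamping. Rostral array 276, whose description gives 48 h and whose source name gives 24 h, was in neither group. Nothing in the labels ties arrays to separate mice, and p-values therefore cover only the spread between these samples, which may be technical. Array numbers run in blocks by time, so time and the order of the numbers cannot be told apart.

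Clamping the aorta cuts off the blood supply of the lower cord, while the cord above T6 keeps more of its own inflow and is the less exposed region. Tissue of the cord is made up of neurons, astrocytes, myelinating oligodendrocytes, microglia and vessels. Cardiac muscle is built on sarcomeres of myosin, actin, troponin and titin, and most of the proteins that build it are made only in striated muscle. Some genes on the heart lists are also active in cord, such as Lpl in microglia, Des in vessel walls and Pdk4 under glucocorticoids. Glucocorticoids, the adrenal stress steroids, act through a nuclear receptor that switches on a known set of target genes in glia and vessels.

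Levels are log2 RMA signals (RMA is a background-corrected, quantile-normalised summary of the probes of a gene), so a difference of 1 is a 2-fold change. The array medians lay between 6.79 and 6.88. Caudal array 271 stood apart, with a lower quartile of 5.52 (5.17 to 5.27 on the others) and an SD of 2.05 (2.21 to 2.27). Its mean of 12 pan-neuronal genes was 11.23, against 12.05 to 12.45 on the others. It was kept in the fit, so it counts in the spread behind every SE. In all, 18193 genes were tested with limma in a fit of 21 arrays in 6 groups, and a gene was called at a Benjamini-Hochberg adjusted p under 0.05. Errors of changes are standard errors (SE).

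The Hox levels of both arrays numbered 283 went against their region labels. Array 283_R, labelled rostral at 24 h, read 9.41 for Hoxd10, 10.14 for Hoxc10 and 11.57 for Hoxa9, genes that pattern the lower body. The other rostral arrays of both times lay between 3.98 and 4.40 for Hoxd10, between 5.32 and 5.96 for Hoxc10 and between 8.81 and 9.10 for Hoxa9. Hoxc5, a gene of the neck and upper trunk, read 6.07 on 283_R and between 7.86 and 8.43 on the other 6. The mean of the 13 caudal Hox genes was 7.25 on 283_R and 5.76 on the caudal array with the same number, against 7.07 to 7.38 on the other clamped caudal arrays. Array 283_C, labelled caudal at 24 h, read 4.37 for Hoxd10, 5.67 for Hoxc10 and 8.22 for Hoxc5, all near the levels of the rostral arrays. Results are therefore given with and without 283_R, and those that use caudal arrays also without both.

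Heart muscle transcripts were the largest group among the genes that rose from 24 h to 48 h in rostral cord. Of the 93 measured genes on the 4 heart lists, 41 rose and 0 fell, against 63 genes that rose (0.346% of all tested) and 3 that fell (0.0165%), or 66 called (0.363%). Outside the heart lists 22 genes rose, among them Plin4, Cebpb and Mt2. The 3 genes that fell, Lss, Efemp1 and Islr, fell by 0.43 to 0.73. Of the 63 rises, 54 were at least 2-fold, and in all 66 called genes the 48 h arrays did not overlap the 24 h arrays. Over all genes tested, the 48 h arrays lay all above in 846 (4.65%) and all below in 1150 (6.32%). The 66 genes were called on these same arrays, so the lack of overlap is no further support.

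Without 283_R 42 genes rose (0.231%), 0 fell (0%), and 42 were called in all (0.231%) in limma, with 738 genes at an unadjusted p under 0.05 against 954 with it. All 42 had also been called with the array, and 33 of them were heart list genes. Setting the heart lists aside before the adjustment left 18100 genes, of which 10 were called (0.0552%), all higher at 48 h. They were Dsp, Tmem182, Srl, Mylk3, Asb11, Itgb1bp2, Mt2, Ccng1, Mlf1 and 1 predicted gene. Several of them, such as Dsp, Tmem182, Srl and Mylk3, are known from heart or skeletal muscle, so the heart lists do not hold every muscle gene. With 283_R left out as well, 0 of the 18100 genes were called (0%) by limma. The count also moved with the arrays that set the spread. A fit of the rostral arrays alone called 275 genes (1.51%), with 186 higher (1.02%) and 89 lower (0.489%). Heart list genes were a minority there, 46 of the 275, with 140 higher and 89 lower outside the lists. It held 65 of the 66 genes of the fit of all groups. It was down to 66 genes without 283_R.

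The sarcomere is the working unit of heart muscle, and its genes showed the largest rises. Of 32 measured sarcomere genes 22 rose (0.346% over all genes) and 0 fell (0.0165%). The median change was 2.36, against -0.01 over all genes tested. In 23 of the 32 all 48 h arrays lay above all 24 h arrays, as was the case for 846 genes (4.65%) of those tested. Without 283_R 20 of the 32 rose (0.231% over all genes).

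Actc1, cardiac alpha-actin, read 10.78, 11.75, 12.24 and 11.33 on 48 h arrays 271 to 274 and 5.79, 5.25 and 5.36 on 24 h arrays 281 to 283. The sham mean was 5.21 ± 0.03 (SD, n = 4). The 24 h arrays thus sat near the sham level and the 48 h arrays far above it, with no overlap. The change was 6.06 (SE 0.25, limma adjusted p = 2.7e-11), and 6.01 without 283_R (adjusted p = 1.66e-09). Myl2, the regulatory myosin light chain of the ventricle, read 12.09, 13.08, 12.87 and 12.89 at 48 h and 7.05, 6.10 and 5.82 at 24 h. It changed by 6.41 (SE 0.51, limma adjusted p = 3.71e-07), the largest change of any gene called. Myh6, the main myosin motor of the adult mouse heart, read 9.84, 10.82, 10.40 and 9.47 at 48 h and 4.65, 4.27 and 4.30 at 24 h, a change of 5.72 (SE 0.35). Array 281 was the highest 24 h array for all 3 genes, and still lay more than 4 log2 units below every 48 h array.

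Troponin, the calcium switch of the sarcomere, rose with all 3 of its cardiac subunits. Tnnt2 changed by 5.23 (SE 0.29), Tnni3 by 4.81 (SE 0.42) and Tnnc1 by 3.84 (SE 0.31). The giant spring protein titin, Ttn, changed by 4.77 (SE 0.56). Myosin-binding and M-band genes followed at lower size, with Myom1 at 2.61 and Mybpc3 at 2.35. The atrial light chain Myl7 read 6.06 on array 271 and 8.48, 9.34 and 8.60 on arrays 272 to 274, against 4.53 to 4.70 at 24 h. Its change was 3.51 (SE 0.47, limma adjusted p = 0.000387). Atrial and ventricular forms of the light chain were thus both raised.

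**Figure D1:**
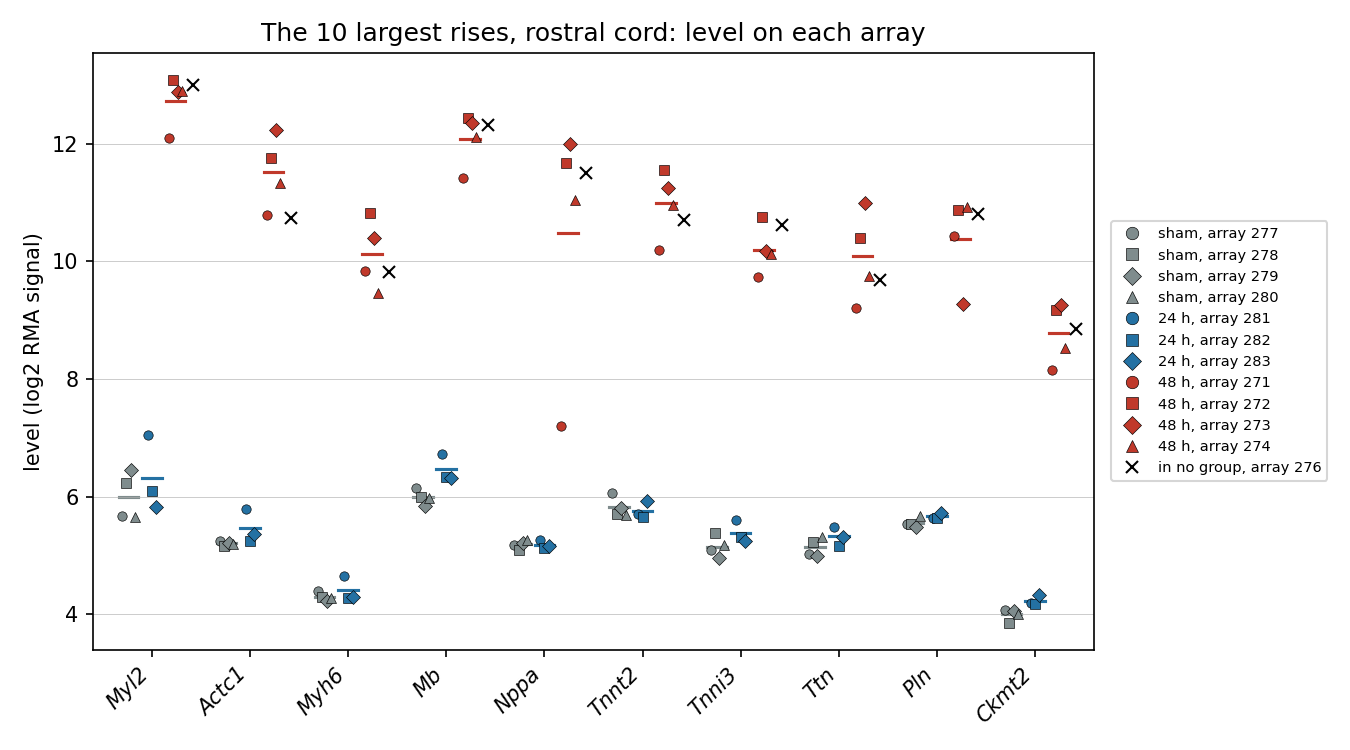
Level (log2 RMA signal) of the 10 genes with the largest rise on each rostral array, with horizontal bars at group means, points for sham, 24 h and 48 h arrays, and crosses for array 276. The 48 h arrays lie above 24 h and sham for all 10 genes, array 271 is far below the others for Nppa at 7.2, and array 276 lies among the 48 h arrays, with 13 for Myl2.

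Genes of calcium handling were fewer. Of 16 measured, 4 rose (0.346% over all genes) and 0 fell (0.0165%), with a median change of 0.14. Pln, which restrains the calcium pump of the sarcoplasmic reticulum, read 10.43, 10.88, 9.28 and 10.93 at 48 h and 5.63, 5.64 and 5.72 at 24 h, a change of 4.72 (SE 0.40). Sln, a related pump regulator of the atrium, changed by 2.12 (SE 0.29), Casq2, the calcium store protein of the reticulum, by 1.43 (SE 0.20) and Hrc, which binds calcium there too, by 1.02 (SE 0.18). All 4 stayed called without 283_R (0.231% over all genes).

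Heart regulators and peptides gave 6 rises of 18 measured (0.346% over all genes), and 3 without 283_R (0.231%). Nppa, atrial natriuretic peptide, read 7.2, 11.67, 12.00 and 11.04 at 48 h and 5.27, 5.12 and 5.16 at 24 h. Array 271 was more than 3 log2 units below the other 48 h arrays, and the SE of the change of 5.29 was 0.72 (limma adjusted p = 0.000476). Nppb, the second natriuretic peptide, ran from 6.92 on array 271 to 10.36 on array 273 and changed by 2.45 (SE 0.52), a call that was lost without 283_R (adjusted p = 0.176). Mb, the oxygen store myoglobin, changed by 5.62 (SE 0.58), although its other probe set, at -0.20, did not follow. Of the 66 called genes 25 had other probe sets, and in 4 genes at least 1 of these had the opposite sign. Some with the same sign moved far less, with 0.67 for Myh6, 0.09 for Sln and 0.04 to 3.17 for Ttn. For Tnnt2 they gave 4.70 and 0.51 and for Dsp 2.63 and 0.19. Those of Pln (3.61 and 3.74) and Cox6a2 (2.98) were nearer to the change named.

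Genes of fuel use in the heart gave 9 rises of 27 measured (0.346% over all genes), with a median change of 0.38. The mitochondrial creatine kinase Ckmt2 read 8.15, 9.18, 9.26 and 8.52 at 48 h and 4.20, 4.17 and 4.33 at 24 h, a change of 4.54 (SE 0.35). Cox6a2, the striated muscle form of a cytochrome oxidase subunit, changed by 3.31 (SE 0.23). Some of the 9 handle fatty acids. Lpl, the lipase that frees fatty acids from blood lipoproteins, read 10.79, 11.74, 11.20 and 10.92 at 48 h and 8.47, 8.61 and 9.38 at 24 h, a change of 2.34 (SE 0.20). Array 283 was its highest 24 h array, and without it the change was 2.63. Cd36, a fatty acid carrier of the cell membrane, changed by 3.46 (SE 0.27) and Fabp3, which carries fatty acids inside heart cells, by 1.14 (SE 0.17). Fabp4, the fatty acid binder of fat and vessel cells, read 7.26, 9.81, 8.94 and 7.60 at 48 h and 3.85 to 4.37 at 24 h. Its adjusted p missed the threshold (change 4.24, SE 0.97, limma adjusted p = 0.0803), and the fat markers Adipoq and Cidec differed by 0.17 and 0.13.

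The rises outside the heart lists did not all follow the array order of the heart list genes. Over the 41 called heart genes array 271 was the lowest 48 h array in 35 and array 273 the highest in 22. Over the 22 other rises array 274 was the lowest in 12 and array 271 in 10. The 10 include the muscle genes Dsp, Srl, Tmem182, Mylk3 and Trim63 described below, and the 12 include Plin4, Cebpb and Mt2. Over all genes tested, array 271 was the lowest in 19% and array 274 in 26.4%, and array 273 was the highest in 21.9%. The mean of the 32 sarcomere genes was 8.19, 9.25, 9.40 and 8.70 on arrays 271 to 274, and 6.51, 6.36 and 6.33 on arrays 281 to 283. The sham arrays lay between 6.34 and 6.40. In the caudal cord, the same mean was 6.60 to 7.55 at 48 h and 6.32 to 6.63 at 24 h. The 6.63 came from 283_C, whose Hox levels were near those of rostral arrays. It read 8.41 for Mb and 7.53 for Ttn, against 6.36 and 5.18 on 281_C and 6.37 and 5.54 on 282_C. Its Actc1 (5.35) and Tnnt2 (5.50) were not above theirs. The skeletal muscle list mean was 6.94 on 283_C, against 5.81 and 5.93 on 281_C and 282_C. The fat cell list mean was 6.73, against 4.99 and 5.06.

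Other tissues were looked for with marker lists. The 16 skeletal muscle genes had a list mean of 8.78 on array 273 and between 5.76 and 5.97 on the other 48 h arrays, with 5.63 to 5.82 at 24 h, and 0 of 16 were called. Acta1, skeletal alpha-actin, read 11.09 on array 273 and 5.89 to 6.95 on the other 48 h arrays. The lung epithelium list lay between 5.45 and 5.57 at 48 h and between 5.50 and 5.67 at 24 h, and 3 of its 7 genes were under the lower quartile of the array on each of these arrays. Pan-neuronal genes, which mark the tissue as cord, lay between 12.22 and 12.41 on all 7 arrays. What part other tissue in the samples has in these changes was not tested.

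**Figure D2:**
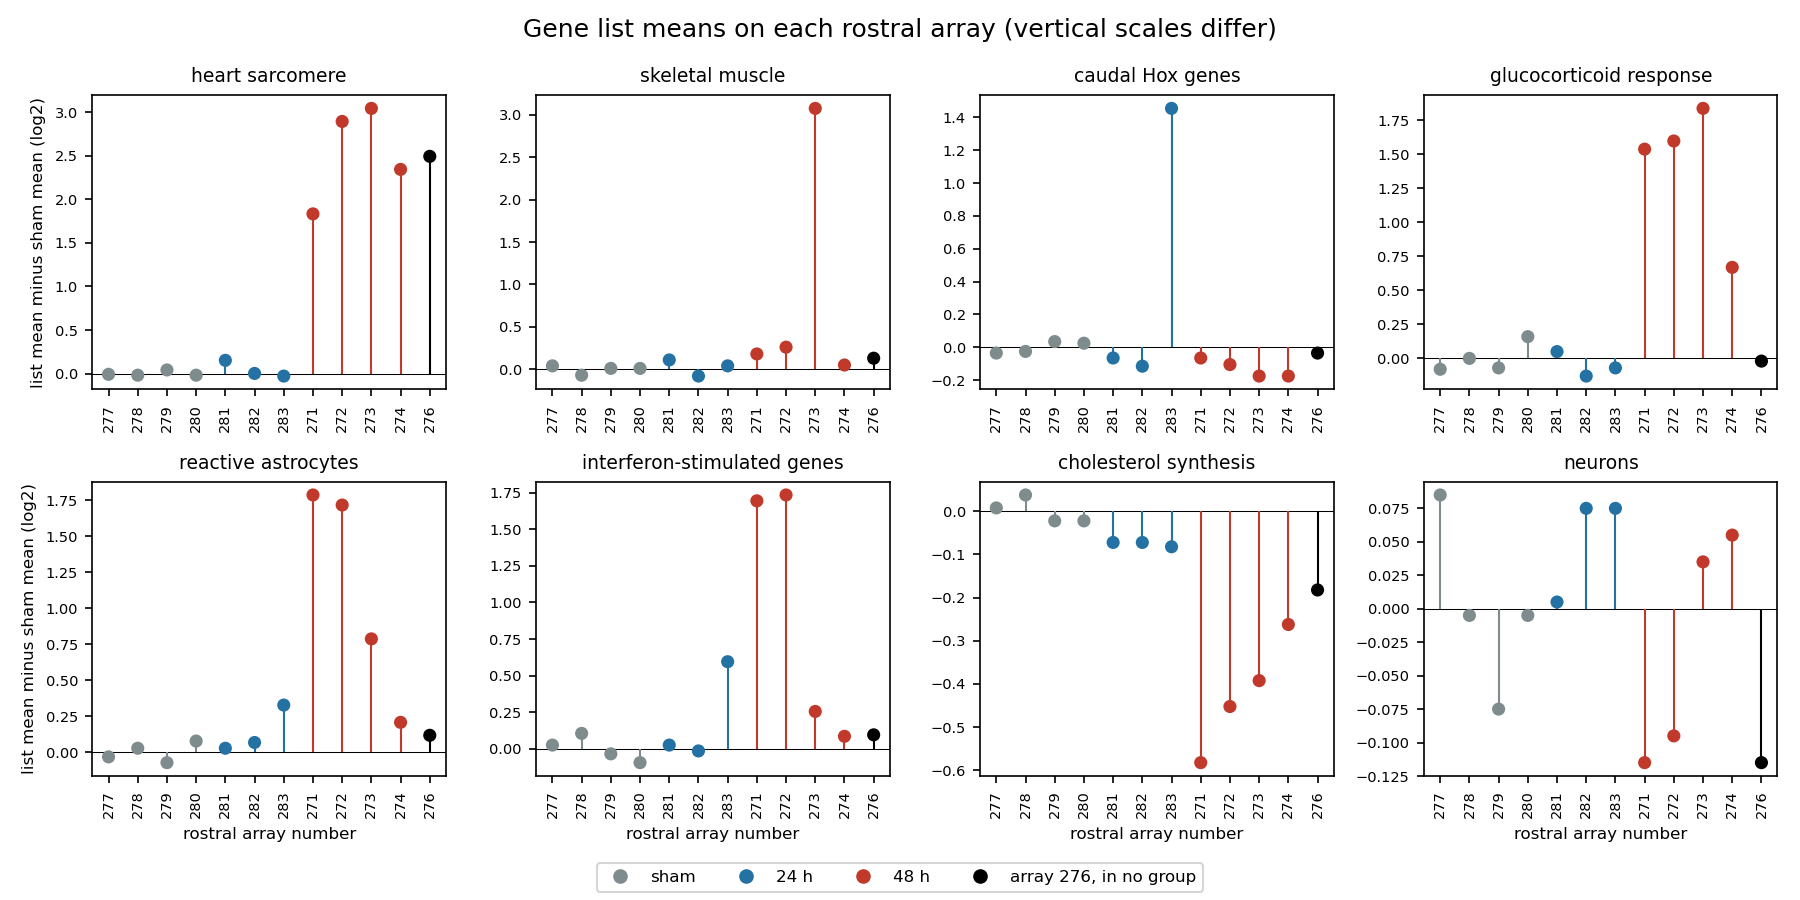
Mean level of 8 gene lists on each rostral array minus the mean of the 4 sham arrays (log2), coloured by group, with array 276 in black and a separate vertical scale in each panel. The sarcomere list is up on arrays 271 to 274 and on 276, the skeletal muscle list on 273, caudal Hox genes on 283, the reactive astrocyte and interferon lists mainly on 271 and 272, and the glucocorticoid list on 271 to 273 with less on 274.

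The start of a heart gene often carries a CArG box, the site of serum response factor, a regulator of actin and myosin genes in muscle. In RefSeq promoters (build GRCm38.p6), the 250 bases before the start of 26 of the 32 sarcomere genes could be read, and 7 of these held a CArG box on either strand (26.9%), against 207 of 14452 measured genes (1.43%). Of the sarcomere genes called, 20 could be read and 5 held it. The 4 shown are called genes of the thin filament, the light chains and the M-band, each printed as the 150 bases before the start, 5′ to 3′ on the strand of the gene, with the CArG box in capitals. They lie at chr2:114052876-114053025 (Actc1, minus strand), chr9:110763528-110763677 (Myl3, plus strand), chr11:5898783-5898932 (Myl7, minus strand) and chr17:71019407-71019556 (Myom1, plus strand).
Actc1: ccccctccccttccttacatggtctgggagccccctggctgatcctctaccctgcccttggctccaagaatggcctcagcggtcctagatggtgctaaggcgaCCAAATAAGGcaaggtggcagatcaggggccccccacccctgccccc
Myl3: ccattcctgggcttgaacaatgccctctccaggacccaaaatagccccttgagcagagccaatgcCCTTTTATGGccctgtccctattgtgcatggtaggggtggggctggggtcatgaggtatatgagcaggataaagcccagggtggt
Myl7: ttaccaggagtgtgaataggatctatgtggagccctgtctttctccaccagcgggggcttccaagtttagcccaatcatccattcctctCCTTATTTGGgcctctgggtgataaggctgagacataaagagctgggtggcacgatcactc
Myom1: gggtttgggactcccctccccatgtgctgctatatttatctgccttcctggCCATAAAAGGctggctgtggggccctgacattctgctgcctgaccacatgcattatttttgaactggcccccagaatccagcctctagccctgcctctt
The box begins 47 bases before the start in Actc1, 85 in Myl3, 61 in Myl7 and 99 in Myom1. The match is a description of the letters and does not show that the factor is bound.

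Outside the heart lists, several of the genes that rose are known from heart or skeletal muscle. Dsp, the desmosome protein that ties heart cells together, read 7.17, 7.87, 7.80 and 7.21 at 48 h and 4.91, 4.58 and 4.67 at 24 h. It changed by 2.79 (SE 0.41, limma adjusted p = 0.00118), and by 2.77 without 283_R (adjusted p = 0.0118). Srl, sarcalumenin of the sarcoplasmic reticulum, changed by 1.34 (SE 0.18), Tmem182 by 1.86 (SE 0.31), Mylk3, the cardiac myosin light chain kinase, by 1.23 (SE 0.20) and Trim63, a ubiquitin ligase of muscle wasting, by 1.29 (SE 0.24). Array 271 was the lowest 48 h array for all 5 of these genes. Of the 5, Trim63 was not called with the heart lists set aside (limma adjusted p = 0.0512).

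Other genes outside the heart lists also rose. Cebpb, a transcription factor of acute inflammation and fat metabolism, read 9.87, 9.69, 9.75 and 8.92 at 48 h and 8.13, 8.36 and 8.47 at 24 h, a change of 1.24 (SE 0.23, limma adjusted p = 0.0143). Mt2, a metal-binding metallothionein, read 14.29, 14.34, 14.15 and 13.63 against 13.32, 13.18 and 13.15, a change of 0.89 (SE 0.16, adjusted p = 0.0084). Ccng1, cyclin G1, a p53 target, read 10.46, 10.70, 10.67 and 10.04 against 9.59, 9.65 and 9.89, a change of 0.76 (SE 0.13, adjusted p = 0.00507). Array 274 was the lowest 48 h array in all 3. Array 276, in no group, read 10.13 for Ccng1, within the 48 h range. It read 8.31 for Cebpb and 13.4 for Mt2, both below the 48 h range. Without 283_R only Ccng1 of the 3 was called (0.85, adjusted p = 0.00787), while Cebpb was at 0.0506 and Mt2 at 0.077. With the heart lists set aside Mt2 and Ccng1 stayed called, and Cebpb did not (limma adjusted p = 0.0512).

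Mfsd2a, the lipid transporter of the blood-brain barrier, changed by 1.07 (SE 0.21), with 9.82 to 10.84 at 48 h and 9.04 to 9.49 at 24 h. Adipor2, an adiponectin receptor, changed by 0.77 (SE 0.15) and Il12rb1, a subunit of the interleukin 12 receptor, by 0.50 (SE 0.10). None of these 3 was called without 283_R. Tekt4, a tektin of motile cilia, changed by 1.41 (SE 0.29) and was not called without 283_R either. Setting the heart lists aside also lost these calls. The limma adjusted p-values were then 0.0677 for Mfsd2a, 0.074 for Adipor2, 0.0984 for Il12rb1 and 0.098 for Tekt4.

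Of the 15 genes of the glucocorticoid response list 3 rose (Plin4, Pdk4 and Klf9) and 0 fell in the fit of 21 arrays. Over all genes 0.346% rose and 0.0165% fell. The median change of the list was 1.54, and in 14 of the 15 all 48 h arrays lay above all 24 h arrays (4.65% over all genes). With the heart lists set aside 0 of the list were called, with adjusted p-values of 0.0907 for Plin4 and 0.131 for Klf9 in limma. Without 283_R 0 were called and the median was 1.47. In the fit of rostral arrays alone 8 of the 15 rose (1.02% over all genes). Pdk4, which holds back glucose oxidation, is also on the heart fuel list.

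Plin4, a lipid droplet coat protein, read 11.04, 11.31, 11.43 and 8.72 at 48 h and 7.52, 7.64 and 7.36 at 24 h. Arrays 271 to 273 lay close together, and array 274 was nearer to the 24 h arrays than to them. The change was 3.12 (SE 0.63, limma adjusted p = 0.0288), and 3.05 without 283_R (adjusted p = 0.181). Fkbp5, the receptor co-chaperone often used to read glucocorticoid action, read 11.18, 11.53, 11.71 and 9.73 against 9.26, 9.39 and 9.21. It differed by 1.75 (SE 0.39, adjusted p = 0.0623). Lcn2, lipocalin 2 of injured astrocytes, read 11.58, 11.51, 11.08 and 8.41 against 7.36, 7.71 and 7.94, and Cdkn1a, the p53 and glucocorticoid target p21, 11.79, 11.87, 11.94 and 9.96 against 9.50, 9.46 and 9.77. Array 274 was again the low 48 h array in both.

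Array 274 was the lowest 48 h array for 9 of the 15 glucocorticoid genes. Leaving it out raised the genes called to 175 (0.962%), of which 95 were higher and 37 lower outside the heart lists. It raised the glucocorticoid genes called higher to 8 of 15, against 138 of the 18193 genes tested. The limma adjusted p-values were then 0.000964 for Plin4, 0.000793 for Fkbp5, 0.00127 for Lcn2 and 0.000676 for Cdkn1a. Array 274 was singled out after these values were seen, so the smaller p-values follow from that choice and are no further support. The remaining members, such as Tsc22d3 (GILZ, a classic direct target, difference 0.45, SE 0.24) and Per1 (0.48, SE 0.27), moved less. Klf9, a direct target with little spread, read 12.61, 12.54, 12.79 and 12.45 against 12.02, 11.97 and 11.97 and changed by 0.61 (SE 0.13, adjusted p = 0.0497).

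**Figure D3:**
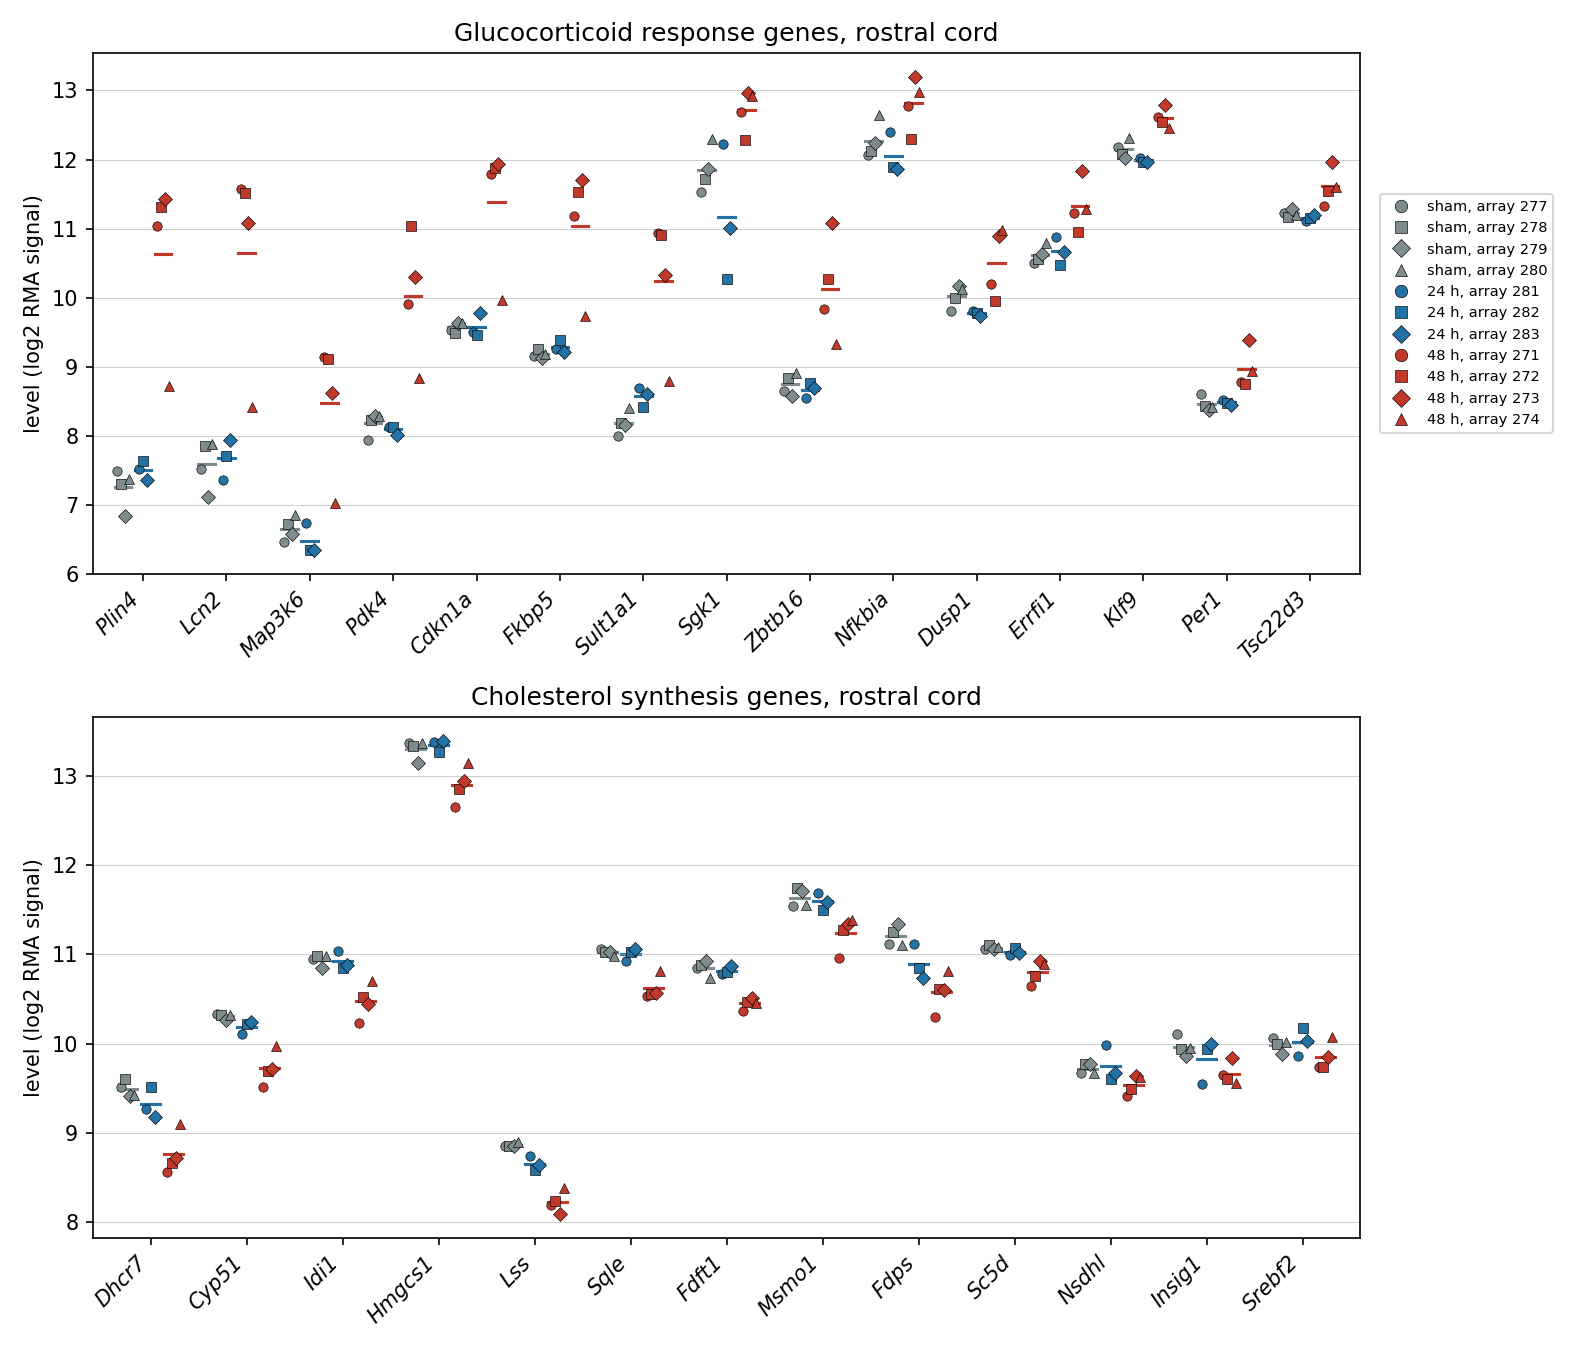
Level (log2 RMA signal) of the measured genes of the glucocorticoid response list (top) and the cholesterol synthesis list (bottom) on each sham, 24 h and 48 h rostral array, with horizontal bars at group means. Array 274 falls between the other 48 h arrays and the 24 h arrays for Plin4, Lcn2, Cdkn1a and Fkbp5, and 9 of the 13 cholesterol genes have all 48 h arrays below all 24 h arrays.

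The receptor binds an inverted repeat, and its inner letters ACANNNTGT were searched in the same promoters on both strands. They were found in 3 of 14 glucocorticoid list promoters (21.4%), against 761 of 14452 (5.27%), namely in Lcn2, Map3k6 and Sgk1. The promoters of Lcn2 (chr2:32387740-32387939, minus strand) and Map3k6 (chr4:133240618-133240817, plus strand) are shown, since these genes had large differences (2.97 and 2.00). The 200 bases before each start are given with the match in capitals.
Lcn2: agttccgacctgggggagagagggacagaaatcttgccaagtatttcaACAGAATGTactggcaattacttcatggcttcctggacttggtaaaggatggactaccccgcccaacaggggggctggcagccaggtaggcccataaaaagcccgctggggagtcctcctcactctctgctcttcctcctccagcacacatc
Map3k6: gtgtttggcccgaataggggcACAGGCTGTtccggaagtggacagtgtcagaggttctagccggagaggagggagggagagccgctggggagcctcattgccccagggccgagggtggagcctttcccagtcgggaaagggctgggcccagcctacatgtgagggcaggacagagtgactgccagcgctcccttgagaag
The match lies 152 bases before the start in Lcn2 and 179 in Map3k6, and says nothing of binding in these samples.

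Of 13 measured cholesterol synthesis genes 1, Lss, fell (0.0165% over all genes). In 9 of the 13 all 48 h arrays lay below all 24 h arrays, as was the case for 1150 genes (6.32%) of those tested. The median change of the list was -0.37. Lss, which closes the sterol ring system, read 8.19, 8.24, 8.09 and 8.39 at 48 h and 8.74, 8.59 and 8.64 at 24 h, and fell by 0.43 (SE 0.08, limma adjusted p = 0.0135). The sham mean was 8.86 ± 0.03 (SD, n = 4), above both groups. Without 283_R the difference was -0.44 (adjusted p = 0.0754), and with the heart lists set aside the adjusted p was 0.0512. Idi1 read 10.23 to 10.70 at 48 h and 10.85 to 11.04 at 24 h, a difference of -0.45 (adjusted p = 0.174), and Dhcr7, which makes the last step to cholesterol, differed by -0.56 (adjusted p = 0.122). In the fit of rostral arrays alone 6 of the 13 fell (0.489% over all genes). Array 274 was the highest 48 h array in 9 of the 13, so that it was again nearest to 24 h.

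The other 2 genes that fell code for matrix proteins. Efemp1, a fibulin, read 8.17, 8.09, 7.84 and 8.17 at 48 h and 8.63, 8.54 and 9.03 at 24 h, and fell by 0.67 (SE 0.14, limma adjusted p = 0.0373). Islr, a secreted protein of fibroblasts, read 9.13, 9.10, 8.66 and 9.11 against 9.73, 9.58 and 9.87, and fell by 0.73 (SE 0.15, adjusted p = 0.0465). The sham mean of Efemp1, 8.37, lay between the groups, with 24 h minus sham at 0.36 and 48 h minus sham at -0.30. That of Islr was 9.65, with 0.08 and -0.65. In both genes, 283 was the highest 24 h array. Without it the differences were -0.52 for Efemp1 (limma adjusted p = 0.401) and -0.65 for Islr (adjusted p = 0.368). With the heart lists set aside neither was called (limma adjusted p = 0.104 for Efemp1 and 0.123 for Islr).

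Inflammatory and glial lists moved on a subset of the 48 h arrays. Among the 15 reactive astrocyte genes 0 were called, with a median difference of 0.89. Serpina3n, a protease inhibitor of reactive astrocytes, read 12.50, 12.36, 10.34 and 9.36 at 48 h and 8.98 to 9.23 at 24 h, a difference of 2.07 (SE 0.68, limma adjusted p = 0.39). Socs3, the feedback inhibitor of interleukin 6 signalling, read 10.90, 10.96, 8.66 and 7.37 at 48 h and 6.51 to 6.95 at 24 h, and differed by 2.74 (SE 0.79, adjusted p = 0.276). The order of the arrays was thus alike in both, with arrays 271 and 272 high, 273 between and 274 near 24 h.

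Interferon-stimulated genes split in the same way, and 0 of 16 were called (median difference 0.72). Usp18, which damps interferon signalling, read 9.44 and 9.49 on arrays 271 and 272, 7.53 and 6.99 on 273 and 274, and 6.90, 6.75 and 7.93 at 24 h. Array 283 was above array 273, so the groups overlapped with it included, as they did for all 16 genes of the list. The list mean was 7.92 on array 283, above the 7.58 on array 273 and 7.41 on array 274. On arrays 281 and 282 it was 7.35 and 7.31, below both. Without 283_R the median difference was 0.98, and again 0 were called. In the caudal cord, on other arrays, all 16 genes of the list rose, with a median change of 2.13, where 771 of all genes (4.24%) rose. Without both arrays numbered 283, 3 of the 16 rose (median 1.84), against 173 of all genes (0.951%). With all arrays, none of the 16 was called in the region test (median region difference -1.45). Il6, the interleukin that drives the acute phase, read 5.64, 5.67, 5.66 and 4.06 at 48 h and 3.73 to 3.96 at 24 h, a difference of 1.42 (SE 0.81).

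Immediate early genes, the first wave of transcription after a stimulus, gave 0 calls of 20, although in 12 all 48 h arrays lay above all 24 h arrays (4.65% over all genes). Fos read 11.11, 11.34, 10.36 and 10.58 against 9.89, 9.91 and 9.49, a difference of 1.08 (SE 0.33, limma adjusted p = 0.311). Fosl2, a Fos relative of slower onset, differed by 1.26 (SE 0.32). In the fit of rostral arrays alone 5 of the 20 rose (1.02% over all genes). In caudal cord 17 of the 20 rose (4.24% over all genes), with a median change of 1.58, and the rostral median was 0.41. Without both arrays numbered 283, 8 of the 20 rose in caudal cord (0.951% over all genes). The region test called 1 of the 20 (0.192% over all genes), Egr3, a zinc finger factor (region difference -2.29, SE 0.34).

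In the fit of 21 arrays no gene of the lists for neurons, motor neurons, homeostatic astrocytes, microglia at rest, myelin, endothelial cells or meningeal fibroblasts was called. The fit of rostral arrays alone called 1 homeostatic astrocyte gene higher (1.02% over all genes). It called 1 myelin gene and 1 meningeal fibroblast gene lower (0.489% over all genes). Median differences ranged from -0.22 (homeostatic microglia) to 0.05 (motor neurons). The smooth muscle list, which vessel walls also express, had a median difference of 0.45 over 8 genes. Of these 1 rose (0.346% over all genes), Des, an intermediate filament gene that is also on a heart list. Acta2, smooth muscle alpha-actin, read 9.53, 9.62, 9.65 and 9.50 at 48 h and 8.97, 8.94 and 8.81 at 24 h, with no overlap, and differed by 0.67 (SE 0.20, limma adjusted p = 0.282). In the fit of rostral arrays alone its adjusted p was 0.000239, and 3 of the 8 genes rose (1.02% over all genes). In bulk samples, fewer cells of a type and less RNA per cell cannot be told apart. Gpr34, a purinergic-family receptor of resting microglia, differed by -1.21 (SE 0.42) and H2-Aa, a class II antigen-presenting chain, by -1.3 (SE 0.31, limma adjusted p = 0.106). Of the 7 class II genes 0 were called in the fit of 21 arrays, and 3 were lower in the fit of rostral arrays alone (0.489% over all genes).

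In the same fit 0 genes were called for 24 h minus sham (141 at an unadjusted p under 0.05, limma), while 112 were called for 48 h minus sham. Without 283_R, which was far from sham for the Hox genes above, 0 were called for 24 h minus sham (79 at an unadjusted p under 0.05, limma). These comparisons share the 24 h or the 48 h arrays with the one above. The sarcomere list had a median of 0.03 (0.06 without 283_R) for 24 h minus sham and 2.36 for 48 h minus sham. The glucocorticoid list had -0.06 and 1.39, and the cholesterol list -0.04 and -0.40.

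Whether the step from 24 h to 48 h was the same in both regions was tested as a difference of changes. It was called for 35 genes (0.192%), of which 18 had the larger change in rostral and 17 in caudal cord. Of the 18, 16 were heart list genes and the others were Srl and Mlf1. Actc1 read 7.78, 7.89, 6.91 and 7.49 on the 48 h caudal arrays and 5.35 to 5.47 on the 24 h ones, a rise of 2.12 (SE 0.25), and its change was 3.94 larger in rostral cord (SE 0.35, limma adjusted p = 2.04e-05). Cd36 had a change 2.65 larger in rostral cord (SE 0.38) and Lpl one 1.72 larger (SE 0.28). Mlf1, a gene expressed in muscle and in ciliated cells, rose by 0.75 in rostral cord and differed by -0.15 in caudal cord.

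The 17 genes with the larger change in caudal cord had rostral differences between -0.28 and 0.49. They included Cxcl2, Il1a and Tslp, cytokines of acute inflammation, with caudal rises of 5.0, 2.81 and 3.58. Without both arrays numbered 283, 1 of the 17, Egr3, was still called, and the region p-values of Cxcl2, Il1a and Tslp were 0.41, 0.253 and 0.173 after adjustment (limma). Tlr3, a sensor of double-stranded RNA, read 10.63, 10.74, 10.19 and 10.29 on the 48 h caudal arrays and 9.68, 9.30 and 9.15 on the 24 h ones. Its rostral difference was -0.27, and the change was 1.36 smaller there (region difference -1.36, SE 0.19, limma adjusted p = 0.00231). Cxcl2, Il1a and Tslp are named after their values were seen.

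The region test depended on both arrays numbered 283. Without them 11 genes were called (0.0605%), 10 with the larger change in rostral and 1 in caudal cord, of which Actc1 (adjusted p = 0.00112) and Lpl (0.00491) had the smallest p-values, while Tlr3 was at 0.054, Pln at 0.06, Mlf1 at 0.0669 and Srl at 0.156. The glucocorticoid list gave 0 calls in the region test, with a median region difference of -0.02. Plin4 rose by 2.41 (SE 0.63) in caudal cord, and the region difference was 0.71 (adjusted p = 0.824), which does not show that the changes were equal.

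**Figure D4:**
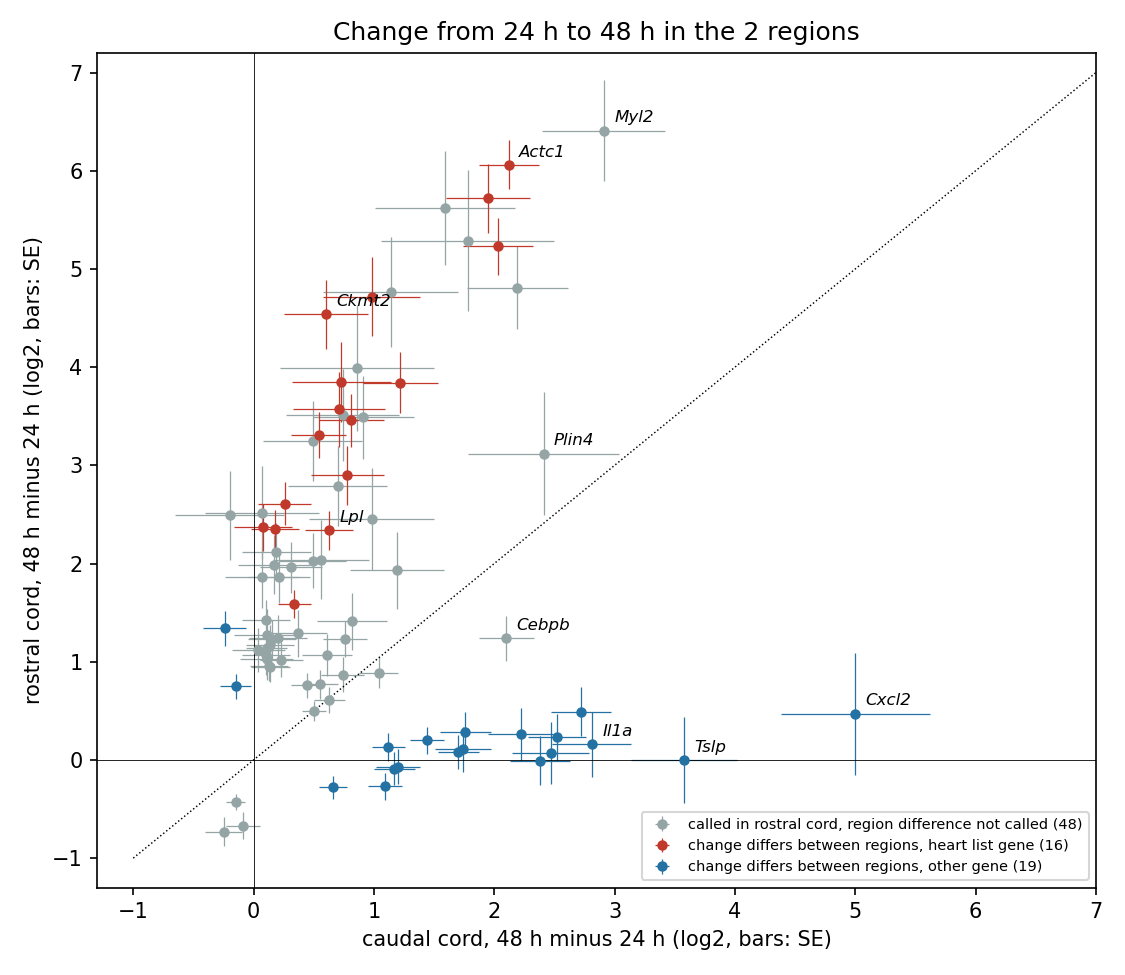
Change from 24 h to 48 h in rostral cord (vertical) against caudal cord (horizontal), log2 with SE bars, for the genes called in rostral cord or in the region test. Heart list genes called in the region test (red) lie above the dotted line of equal change, and 17 of the other genes called in it (blue) lie near 0 in rostral cord with caudal rises of 0.66 to 5.0.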

How the data were processed

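The values deposited by the authors are log2 signals of 22 Affymetrix Mouse430_2 arrays, which the submitters' processing notes put down to RMA (version not given in the sources used here), from biotin-labelled Trizol RNA per the labels. They were used as deposited. Arrays carry no read depth, and their number limits the precision. Of 45101 probe sets, 34945 map to a single gene symbol through the platform annotation, 932 to several, and 9160 are unnamed here. Each gene was read from its brightest probe set (mean of the grouped arrays), giving 18193 genes.

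The 21 arrays entered one limma 3.58.1 model of 6 group means (lmFit, eBayes, two-sided, R 4.3.3, statmod 1.5.0), so that all groups share one spread (18.7 degrees of freedom with the prior). P-values were adjusted by Benjamini-Hochberg over all genes. The fit was tested on simulated data. Members and gene lists were chosen with earlier results of these data known, so a list's direction is no independent support. Named were, among called genes whose groups do not overlap, the 10 largest changes each way with and without the heart lists, up to 4 members of each list by p, and the 10 smallest p-values of the region test. Other list members were named after their values were seen. Promoters are RefSeq's (GRCm38.p6). Alternatives varied the arrays, the normalization, the probe sets, the spread and the threshold.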

Additional observations from a re-analysis of the deposited data

Results flagged for a closer look

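On array 273 Islr read 8.66, far from the other 48 h rostral arrays, and on array 274 Plin4 read 8.72, far below them. Among the sham arrays Lss read 8.90 on array 280, apart from the other 3. Such gaps (by Dixon's test at its 95% critical value) arise by chance in about 1 in 20 groups.

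The change from 24 h to 48 h differed between regions, by the test of the difference itself, for named genes of the heart lists. The rostral change was larger by 3.94 for Actc1, 2.77 for Cox6a2, 3.95 for Ckmt2, 3.19 for Tnnt2, 2.35 for Myom1, 3.77 for Myh6, 2.17 for Mybpc3, 2.65 for Cd36, 2.29 for Tcap and 3.74 for Pln. Outside these lists it was larger by 1.57 for Srl and 0.90 for Mlf1, and the region difference of Tlr3 was -1.36. Without both arrays numbered 283 the calls of Pln (adjusted p = 0.06 in limma), Srl (0.156), Mlf1 (0.0669) and Tlr3 (0.054) were lost.

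Array 276, which is in no group, had a mean of the sarcomere genes 2.49 above the rostral sham mean. Its glucocorticoid list mean of 9.44 lay within the sham range of 9.38 to 9.62, and it read 7.61 for Plin4 and 9.26 for Fkbp5.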

How the results depend on the processing

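The counts of genes higher, genes lower and genes that differ between regions were 63, 3 and 35. They were 0 lower and 22 regional without 283_R, 10, 0 and 10 with the heart lists set aside, 0, 0 and 1 with both, and 41, 0 and 11 without both arrays numbered 283. With the sarcomere mean as a covariate they were 1, 0 and 0, but this mean lies between 8.19 and 9.40 at 48 h and between 6.33 and 6.51 at 24 h, so it nearly repeats the groups and the loss of calls follows from its construction. The change then turned negative, with no call, for Nppa (-1.58), Ttn (-0.60), Tmem182 (-1.24), Srl (-0.36), Trim63 (-0.81), Mylk3 (-0.28), Asb11 (-0.72) and Tecrl (-0.75). Counting array 276 as 24 h gave 19, 1 and 19, and counting it as 48 h gave 1 lower. Rostral arrays alone gave 186 and 89, and only the groups compared gave 40, 0 and 1. Array weights gave 518, 604 and 502. Leaving out caudal arrays 271, 274 and 280, chosen after seeing the data, gave 237, 168 and 349. Brighter genes gave 14, 1 and 5, repeated quantile normalisation gave 1 lower, and a 2-fold threshold 0 lower. Leaving out 1 clamped array at a time gave 42 to 138 higher, 0 to 37 lower and 20 to 160 regional. The highest counts came without rostral array 274 (138 and 37) and without caudal array 274 (160) or 271 (71). The cause of these shifts was not tested, beyond the smaller sets of genes or arrays.

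The numbers in the titles do not establish pairs: over 10 numbers shared by both regions, the correlation of deviations ran from -0.45 to 0.53. With the number as a replicate block (correlation 0.14) 66 genes were higher, 3 lower and 55 regional. Of 610 values of 27 named genes under the alternatives, 440 kept their direction and call, 162 lost the call and 8 reversed.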
